A study of Mus musculus with 8 samples.

Results

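Sterol synthesis was followed through 8 genes in mouse mammary epithelial cells given TGFbeta. They were 5 enzymes (Hmgcs1, Idi1, Fdps, Sqle and Lss) and 3 regulators of the pathway (Srebf1, Srebf2 and Insig1). The genes were chosen by name, with earlier results of these data known. Each was read from the array probesets whose only gene symbol in the platform's probe table was that gene. This gave 9 of the 34760 probesets, with 2 for Idi1 and 1 for each other gene, and 8 of the 19937 genes that had a probeset of their own. None of the 8 encodes a protein that takes up sterol, so uptake was read from a separate gene list. RNA came from NMuMG, a line of normal mouse mammary gland epithelial cells, on 8 Affymetrix arrays in 4 groups of 2. The groups were cells stably transfected with a vector carrying Major satellite sequences and treated with TGFbeta for 8 h, the same cells untreated (0 h), cells stably transfected with a control vector and treated with TGFbeta for 8 h, and those control vector cells untreated. No group was left untreated for 8 h, so TGFbeta and the time from 0 h to 8 h cannot be told apart. Every difference named for TGFbeta below takes in both. The labels do not say how many clones made up each transfected line, and the level of the satellite transcript was not analysed here. TGFbeta drives mammary epithelial cells toward a mesenchymal state, and major satellite is the repeat of mouse pericentromeric heterochromatin. Values are log2 expression values as deposited, so a difference of 1 is a doubling. In such bulk RNA, fewer cells of a type and less RNA per cell cannot be told apart.

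Cells make cholesterol from acetyl-CoA through mevalonate, the isoprenoids isopentenyl and farnesyl pyrophosphate, squalene and lanosterol. The transcription factors SREBP1 (Srebf1) and SREBP2 (Srebf2) are held in the endoplasmic reticulum by INSIG proteins when sterol is plentiful. When sterol is short they are carried to the Golgi, cut, and turn on the genes of sterol synthesis and uptake (mainly SREBP2) and of fatty acid synthesis (mainly SREBP1). Insig1 is itself an SREBP target, so the pathway carries its own brake.

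SREBPs bind sterol regulatory elements, usually beside sites for NF-Y, which reads the CCAAT box. RefSeq promoters (GRCm38.p6) were matched for 6 of the 8 genes, with 3 start sites for Srebf1 and none for Sqle or Fdps, and the 250 bases before each start were searched on both strands. To set their elements side by side, those of Insig1, Hmgcs1, Idi1 and Lss are shown. Insig1 had the highest TGFbeta response, and Hmgcs1 was the only gene with the sterol element searched. Lss and Idi1 are enzyme genes that fell, Idi1 by the higher of its probesets only. Capitals mark the sterol regulatory element (searched as TCACNCCAC) and the CCAAT box, which reads ATTGG on the printed strand. Each runs 5′ to 3′ on the plus strand and ends at the base before the start.
Insig1, chr5:28071162-28071411: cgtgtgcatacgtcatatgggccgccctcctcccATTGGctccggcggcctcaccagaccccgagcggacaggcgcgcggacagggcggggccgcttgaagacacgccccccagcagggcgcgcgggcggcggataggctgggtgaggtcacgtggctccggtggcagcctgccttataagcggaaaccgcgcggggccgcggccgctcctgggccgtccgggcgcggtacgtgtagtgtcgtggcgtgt
Hmgcs1, chr13:119690101-119690350: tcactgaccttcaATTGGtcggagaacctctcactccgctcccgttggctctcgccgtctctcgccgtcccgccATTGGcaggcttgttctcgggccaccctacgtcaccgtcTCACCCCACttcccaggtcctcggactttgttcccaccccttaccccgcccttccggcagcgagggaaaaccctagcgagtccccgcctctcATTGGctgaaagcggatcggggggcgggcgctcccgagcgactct
Idi1, chr13:8885356-8885605: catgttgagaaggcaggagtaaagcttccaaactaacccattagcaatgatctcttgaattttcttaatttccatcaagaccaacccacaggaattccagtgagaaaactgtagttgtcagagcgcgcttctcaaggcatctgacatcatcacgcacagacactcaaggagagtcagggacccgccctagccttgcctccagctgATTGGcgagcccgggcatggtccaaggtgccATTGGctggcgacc
Lss, chr10:76531355-76531604: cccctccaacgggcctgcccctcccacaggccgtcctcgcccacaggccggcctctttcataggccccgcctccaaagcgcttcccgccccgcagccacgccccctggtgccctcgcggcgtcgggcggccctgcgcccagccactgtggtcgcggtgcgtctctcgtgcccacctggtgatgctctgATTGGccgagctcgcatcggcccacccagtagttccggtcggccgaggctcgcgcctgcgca
The sterol element lay 137 to 129 bases before the start of Hmgcs1, and 1.05% of all 32851 promoters held it. A CCAAT box was found in 7 of the 8 matched promoters, at a share of 33.8% over all promoters, and each of the 6 genes had at least 1. Hmgcs1 had 3, Idi1 had 2, and Insig1 and Lss had 1 each. The GC box GGGCGG was also in 7 of the 8, at 32.7% over all promoters. 1 start of Srebf1 had no CCAAT match and another had no GC box match. The E-box CACGTG was in Insig1 alone, 101 to 96 bases before its start, against 6.02% of all promoters. No 2 of these matches overlapped. A match describes the letters only, and a missing match says nothing of what binds there.

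A code in the title of each array is common to 1 array from each of the 4 groups, and it was used to pair arrays (replicate 1 and replicate 2). Array medians over all 34760 probesets were 7.72 to 7.76 in replicate 1 and 7.88 to 7.92 in replicate 2. Over the 19937 genes tested, the median of replicate 2 minus replicate 1 ran the other way, at -0.08. All 4 measured check genes of the TGFbeta response rose over both vectors, by 1.31 for Skil, 1.20 for Smad7, 0.89 for Pmepa1 and 0.42 for Tgfb1 (log2, limma); Smad7 and Pmepa1 also passed without the replicate block. The epithelial markers Cdh1 (12.72 to 13.16), Krt8 (14.19 to 14.42) and Krt18 (13.50 to 13.95) were well above the array medians on all 8 arrays. Epcam (6.53 to 7.16) and Cldn7 (6.70 to 7.03), also epithelial, were below them on all 8. Differences were fitted with limma, with the replicate number as a block, with Benjamini-Hochberg adjustment across the 19937 genes. A gene rose or fell where its adjusted p was under 0.05. The labels do not say that replicates were separate cultures, so the tests take in no more than the spread from array to array, which may be technical.

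Insig1, whose protein retains the SREBP escort in the endoplasmic reticulum, changed most of the 8 genes. In the major satellite line its log2 level was 12.53 and 12.77 with TGFbeta, against 11.78 and 12.47 untreated (replicates 1 and 2). In the control line it was 12.43 and 13.04 with TGFbeta, against 11.44 and 12.38 untreated. TGFbeta arrays were the higher in every pair, and in both lines replicate 2 was above replicate 1, so that the untreated replicate 2 lay just below the treated replicate 1 and the groups did not overlap. Over both vectors Insig1 rose by 0.68 ± 0.10 on the log2 scale (SE), a 1.60-fold rise (95% interval 1.36 to 1.87; limma adjusted p = 0.00106). The rise depended on pairing the arrays: without the replicate block the adjusted p was 0.309. It passed in all 8 fits that left out 1 array.

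**Figure D1:**
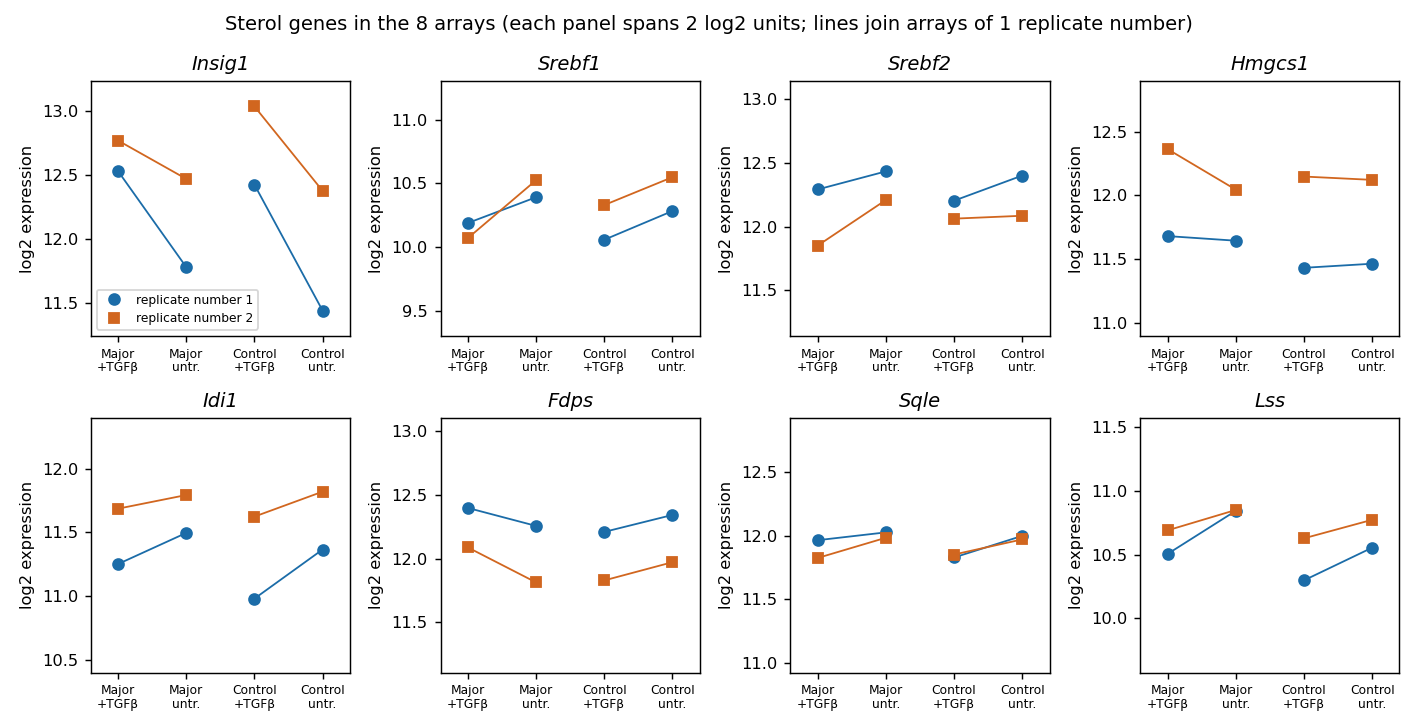
Log2 expression of each of the 8 genes on the 8 arrays (y axis; 1 panel per gene), with lines joining the arrays of 1 replicate number. Insig1 is higher in the TGFbeta array of every pair, by 0.30 to 0.99, and Srebf1, Srebf2, Idi1, Sqle and Lss are lower in the TGFbeta array of every pair. Idi1 is drawn by its higher probeset alone. The pairs of its second probeset differed by 0.06 and -0.02 in the major satellite line and by -0.27 and -0.23 in the control line.

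Srebf1, which encodes the SREBP that mainly drives fatty acid synthesis genes, went the other way. Its log2 level was 10.19 and 10.07 with TGFbeta in the major satellite line, against 10.39 and 10.53 untreated. In the control line it was 10.06 and 10.33 with TGFbeta, against 10.28 and 10.55 untreated. In the major satellite line the treated and untreated arrays did not overlap, and in the control line they did. Over both vectors Srebf1 fell by 0.28 ± 0.08 (SE), 1.21-fold (limma adjusted p = 0.0291; 0.294 without the replicate block). The call was lost without any 1 of 5 arrays: untreated control 2 (adjusted p = 0.129), TGFbeta control 1 (0.121), untreated major satellite 1 (0.0916) or 2 (0.0905), and TGFbeta major satellite 2 (0.0904).

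Srebf2, which encodes the SREBP that mainly drives sterol synthesis genes, had log2 levels of 12.29 and 11.85 with TGFbeta in the major satellite line, against 12.43 and 12.21 untreated. In the control line they were 12.20 and 12.06 with TGFbeta, against 12.40 and 12.09 untreated. The treated array was the lower in each of the 4 pairs, by 0.02 to 0.36, but treated and untreated arrays overlapped in both lines. The difference over both vectors, -0.18 ± 0.07 (SE), did not pass (limma adjusted p = 0.088; 0.726 without the replicate block). It did pass without the TGFbeta major satellite array of replicate 1 (adjusted p = 0.0425).

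Among the enzymes of the mevalonate and isoprenoid steps, Hmgcs1 encodes the cytosolic synthase that makes HMG-CoA. It had log2 levels of 11.68 and 12.36 with TGFbeta in the major satellite line, against 11.64 and 12.04 untreated, and of 11.43 and 12.15 with TGFbeta in the control line, against 11.46 and 12.12 untreated. Replicate 2 was above replicate 1 in all 4 groups, and the treated and untreated arrays overlapped in both lines. The TGFbeta difference over both vectors was 0.09 ± 0.07 (SE; 95% interval -0.07 to 0.25; limma adjusted p = 0.431).

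Idi1 encodes the isomerase that interconverts isopentenyl and dimethylallyl pyrophosphate. Its higher probeset read 11.25 and 11.69 with TGFbeta in the major satellite line, against 11.50 and 11.79 untreated. In the control line it read 10.98 and 11.62 with TGFbeta, against 11.37 and 11.82 untreated. The treated array was the lower in all 4 pairs, though the groups overlapped in both lines, and Idi1 fell by 0.23 ± 0.07 over both vectors (SE), 1.18-fold (limma adjusted p = 0.0384; 0.77 without the replicate block). The call held only without TGFbeta control 2 or without untreated major satellite 2 among the 8 fits that left out 1 array, and the adjusted p of the other 6 was 0.0713 to 0.183. The second Idi1 probeset did not show the same pattern. With TGFbeta it read 11.63 and 11.17 in the major satellite line, against 11.57 and 11.19 untreated, and in the control line 11.29 and 11.17, against 11.56 and 11.40 untreated. Its difference over both vectors was -0.12 ± 0.07 (SE; limma adjusted p = 0.319 with every probeset tested on its own), and its replicates also ran the other way, with replicate 2 lower by 0.28 on average where the first probeset was higher by 0.46.

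Fdps encodes farnesyl pyrophosphate synthase, the last enzyme before the pathway branches to sterols, ubiquinone and prenylated proteins. It read 12.40 and 12.09 with TGFbeta in the major satellite line, against 12.26 and 11.81 untreated, and 12.21 and 11.83 with TGFbeta in the control line, against 12.34 and 11.97 untreated. Treated arrays were the higher in both major satellite pairs (0.14 and 0.27) and the lower in both control pairs (-0.13 and -0.14). Over both vectors the difference was 0.03 ± 0.06 (SE; limma adjusted p = 0.723).

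Of the enzymes from squalene to lanosterol, Sqle encodes squalene epoxidase, a rate-limiting step. It read 11.96 and 11.82 with TGFbeta in the major satellite line, against 12.03 and 11.98 untreated, and 11.83 and 11.85 with TGFbeta in the control line, against 12.00 and 11.97 untreated. Treated and untreated arrays did not overlap in either line, but the difference over both vectors was small, -0.13 ± 0.06 (SE), and did not pass (limma adjusted p = 0.168). Lss encodes lanosterol synthase, which closes the sterol rings. It read 10.51 and 10.69 with TGFbeta in the major satellite line, against 10.84 and 10.85 untreated. In the control line it read 10.30 and 10.63 with TGFbeta, against 10.56 and 10.77 untreated. The groups did not overlap in the major satellite line and did in the control line. Lss fell by 0.23 ± 0.07 over both vectors (SE), 1.17-fold (limma adjusted p = 0.0409; 0.45 without the replicate block). The call held only without TGFbeta control 2 or without untreated major satellite 2, and the adjusted p of the other 6 fits that left out 1 array was 0.0819 to 0.2.

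Over both vectors, 1 of the 8 genes rose, 3 fell and 4 did not pass, at a background of 11.2% of all genes called higher and 13.1% called lower. Idi1 enters the counts of this paragraph by its higher probeset alone. With its probesets averaged, its fall did not pass (limma adjusted p = 0.106). The median difference of the 8 genes was -0.15 on the log2 scale, against 0.025 over all genes. Without the replicate block 2 of the 8, and 2982 of all 19937 genes, had an unadjusted p under 0.05 (limma). After adjustment 0 of the 8 passed in that fit, where 4.83% of all genes did. The count also moved with single arrays: it was 1 without untreated control 2, TGFbeta control 1, untreated major satellite 1 or TGFbeta major satellite 2, and 2 without untreated control 1. In 6 of the 8 genes all 4 pairs moved in 1 direction, and 42.1% of all genes did so. In those 6 the treated array was the higher for Insig1 and the lower for Srebf1, Srebf2, Idi1, Sqle and Lss.

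**Figure D2:**
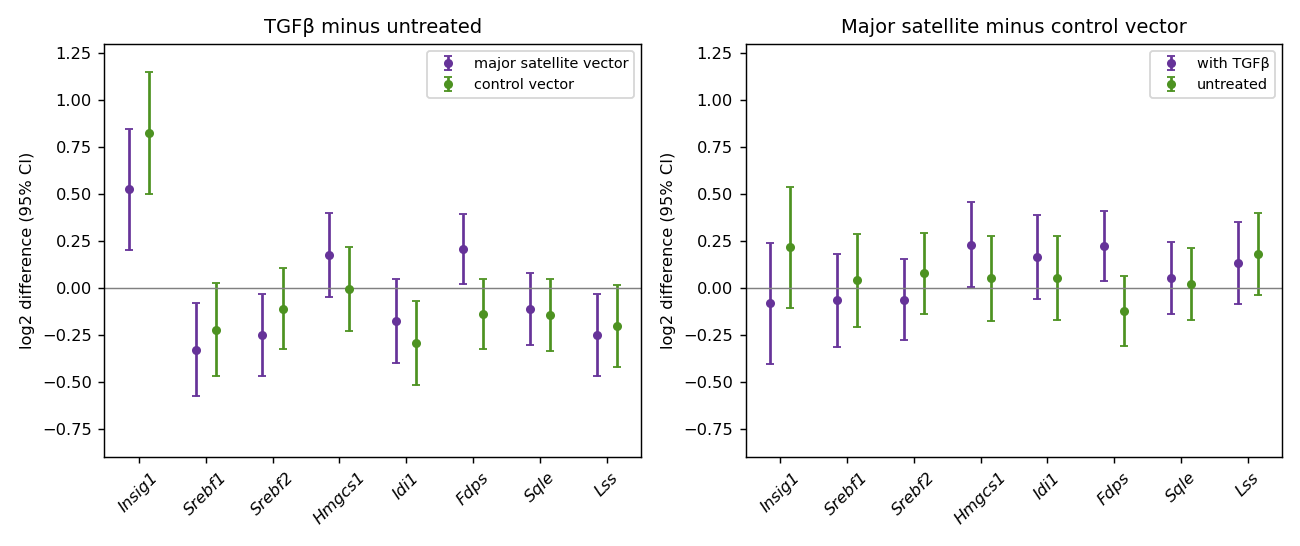
Log2 difference of each of the 8 genes (y axis), TGFbeta minus untreated in each line on the left and major satellite minus control vector in each treatment on the right, with 95% limma intervals as bars. On the left, Insig1 is the only gene with an interval clear of 0 in both lines, at 0.53 in the major satellite line and 0.83 in the control line.

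Within a line, fitted on all 8 arrays, Insig1 was the single gene of the 8 to pass. It rose by 0.53 ± 0.14 in the major satellite line (SE; 1.44-fold; limma adjusted p = 0.0367) and by 0.83 ± 0.14 in the control line (SE; 1.77-fold; adjusted p = 0.00463). The background was 6.89% of all genes called higher and 8.38% called lower in the major satellite line, and 6.92% higher and 7.63% lower in the control line. Without the replicate block its adjusted p was 0.868 in the major satellite line and 0.634 in the control line, and 0 of the 8 genes passed where 1.09% and 1.07% of all genes did. The control-line rise was 0.61 to 1.04 when 1 array was left out. Leaving out a major satellite array cannot change its size, so only the fits without a control array test it. The major satellite rise was lost without either TGFbeta control array (adjusted p = 0.0563), without untreated major satellite 1 (0.193) or 2 (0.139), and without TGFbeta major satellite 1 (0.205), where its size was 0.27 log2. In that last fit Srebf1 passed in its place in the major satellite line (-0.50, adjusted p = 0.0198). The other 7 genes had differences of -0.33 (Srebf1, adjusted p = 0.0782) to 0.21 (Fdps, adjusted p = 0.136) in the major satellite line. In the control line they ran from -0.29 (Idi1, adjusted p = 0.0904) to 0.00 (Hmgcs1, adjusted p = 0.992).

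The test of the difference between the TGFbeta responses of the lines called 0 of the 8 genes and 0.0% of all genes (limma), and 658 genes had an unadjusted p under 0.05. For Insig1 the response in the major satellite line minus that in the control line was -0.30 ± 0.20 (SE; adjusted p = 0.999). Left-out arrays moved it widely: it was -0.55 without TGFbeta major satellite 1, -0.044 without TGFbeta major satellite 2, -0.51 without untreated control 2 and -0.087 without untreated control 1. Fdps was the member with the lowest p: its response in the major satellite line exceeded that in the control line by 0.35 ± 0.12 (SE; 95% interval 0.08 to 0.61; unadjusted p = 0.0163; adjusted p = 0.999). It was also the one gene of the 8 whose pairs ran in opposite directions in the lines, as 6.45% of all genes did.

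**Figure D3:**
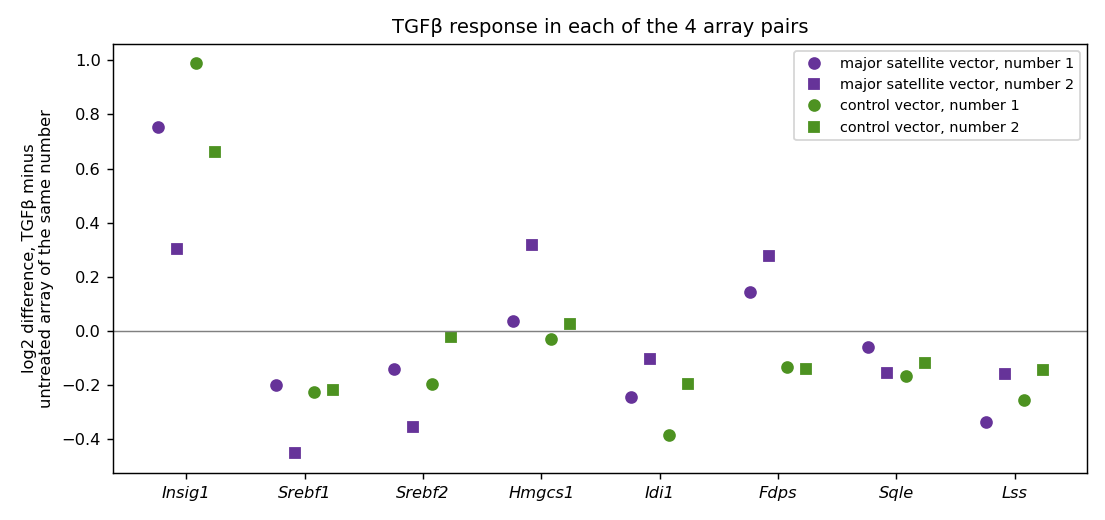
Log2 difference in each of the 4 pairs of arrays for each of the 8 genes (x axis), TGFbeta minus untreated array of the same replicate number (y axis), with colours for the lines and symbols for the numbers. Insig1 lies above 0 in all 4 pairs, from 0.30 to 0.99, and Fdps lies above 0 in both major satellite pairs and below 0 in both control pairs.

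The vector itself moved none of the 8 genes past the test. Major satellite against control vector called 0 of the 8 in untreated cells, 0 with TGFbeta and 0 over both treatments, at backgrounds of 0.0301%, 0.0301% and 0.0853% of all genes (limma). At an unadjusted p under 0.05 there were 0, 2 and 1 of the 8, and 654, 1298 and 1071 of all genes. Lss had the highest difference over both treatments, 0.16 ± 0.07 (SE; 95% interval 0.00 to 0.31; adjusted p = 0.874), and it was higher in the major satellite array of all 4 pairs, by 0.06 to 0.29. All 4 vector pairs ran in 1 direction in 16.6% of all genes. Hmgcs1 followed at 0.14 ± 0.07 (SE; adjusted p = 0.874) and Idi1 at 0.11 ± 0.07 (SE; adjusted p = 0.875). Insig1 (0.07), Fdps (0.05), Sqle (0.04), Srebf2 (0.01) and Srebf1 (-0.01) differed by less. The members with an unadjusted p under 0.05 in treated cells were Fdps (0.22 ± 0.08, SE) and Hmgcs1 (0.23 ± 0.10, SE), both with an adjusted p of 0.752. These comparisons use the same arrays as the TGFbeta comparisons.

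The replicate number moved several members more than TGFbeta did. Replicate 2 minus replicate 1, averaged over the 4 groups, was 0.62 for Insig1, 0.61 for Hmgcs1, 0.46 for Idi1, 0.19 for Lss and 0.14 for Srebf1. It was -0.05 for Sqle, -0.28 for Srebf2 and -0.38 for Fdps. Over all genes the median was -0.08 and the quartiles were -0.25 and 0.10, and 7 of the 8 members lay outside them. For Insig1 the replicate difference was about as large as the TGFbeta difference of 0.68.

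Beyond the 8 genes, the rest of the sterol pathway moved in both directions, in numbers near the background. Of 13 measured genes (of 16 listed), 2 rose, 2 fell and 9 did not pass over both vectors, where 11.2% of all genes rose and 13.1% fell, with a median of 0.13 against 0.025 over all genes. The counts of the lists that follow stand against the same shares. Lbr, which encodes the nuclear envelope receptor for lamin B with sterol C14 reductase activity, fell by 0.76 ± 0.06 (SE; limma adjusted p = 3.2e-05; 0.00787 without the replicate block). It read 10.37 and 10.60 with TGFbeta in the major satellite line, against 11.15 and 11.17 untreated, and 10.37 and 10.44 with TGFbeta in the control line, against 11.17 and 11.34 untreated, with no overlap in either line. Dhcr7, which makes cholesterol from 7-dehydrocholesterol, fell by 0.53 ± 0.06 (SE; adjusted p = 0.000257; 0.116 without the block). Hsd17b7, a sterol 3-ketoreductase, rose by 0.33 ± 0.07 (SE; adjusted p = 0.011; 0.208 without the block), and Mvd, mevalonate diphosphate decarboxylase, rose by 0.23 ± 0.07 (SE; adjusted p = 0.038; 0.778 without the block). The other 9 ranged from -0.09 (Ebp) to 0.18 (Cyp51).

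Of the proteins that process SREBPs or sense sterol, 9 of 11 listed genes were measured, and 0 rose, 3 fell and 6 did not pass (median -0.12). Those that fell were Erlin1 (-0.23 ± 0.06, SE; limma adjusted p = 0.0239) and Erlin2 (-0.19 ± 0.06, SE; adjusted p = 0.0391), which encode membrane proteins of the endoplasmic reticulum that take part in sterol control, and Pgrmc1 (-0.21 ± 0.06, SE; adjusted p = 0.0239). Insig2, the second INSIG gene, differed by -0.17 ± 0.06 and did not pass (SE; adjusted p = 0.0871). Scap, the escort of SREBPs to the Golgi, differed by 0.09 ± 0.07 (SE; adjusted p = 0.377). Without the replicate block 0 of the 9 passed.

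Sterol uptake and transport had 14 of 18 listed genes measured, of which 4 rose, 2 fell and 8 did not pass (median 0.10). Npc1, which moves cholesterol out of lysosomes, rose by 0.65 ± 0.06 (SE; limma adjusted p = 9.28e-05; 0.102 without the replicate block). It read 11.69 and 11.28 with TGFbeta in the major satellite line, against 11.08 and 10.68 untreated, and 11.80 and 11.56 with TGFbeta in the control line, against 11.23 and 10.73 untreated. Gramd1a, which carries sterol from the plasma membrane to the endoplasmic reticulum, rose by 0.51 ± 0.08 (SE; adjusted p = 0.00122). Mylip, a ubiquitin ligase induced by LXR, rose by 0.37 ± 0.06 (SE; adjusted p = 0.00221). Stard4, a sterol carrier and known SREBP2 target, fell by 0.30 ± 0.07 (SE; adjusted p = 0.00896). Without the replicate block 0 of the 14 passed.

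The fatty acid synthesis genes known as SREBP1 targets had calls in 1 direction over both vectors: of 18 measured (of 19), 0 rose, 7 fell and 11 did not pass, with a median of -0.18. Mid1ip1, a regulator of acetyl-CoA carboxylase, fell by 1.08 ± 0.08 (SE; limma adjusted p = 1.44e-05; 0.0451 without the replicate block). Its level was 10.48 and 9.90 with TGFbeta in the major satellite line, against 11.66 and 11.04 untreated, and 10.41 and 10.17 with TGFbeta in the control line, against 11.59 and 11.00 untreated. Elovl6, a fatty acid elongase, fell by 0.84 ± 0.07 (SE; adjusted p = 3.65e-05; 0.284 without the block), Scd1, the stearoyl-CoA desaturase, by 0.56 ± 0.11 (SE; adjusted p = 0.00447; 0.142 without the block), and Me1, malic enzyme, by 0.30 ± 0.06 (SE; adjusted p = 0.00523; 0.083 without the block). Fasn, fatty acid synthase, differed by -0.19 ± 0.06 and did not pass (SE; adjusted p = 0.0619). In each line alone 5 of the 18 fell, and 1 rose in the major satellite line (Pnpla3, 0.29, adjusted p = 0.0474; named after its value was seen). Over all genes 8.38% fell and 6.89% rose in the major satellite line, and 7.63% fell in the control line. Without the replicate block 0 of the 18 passed in either line.

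**Figure D4:**
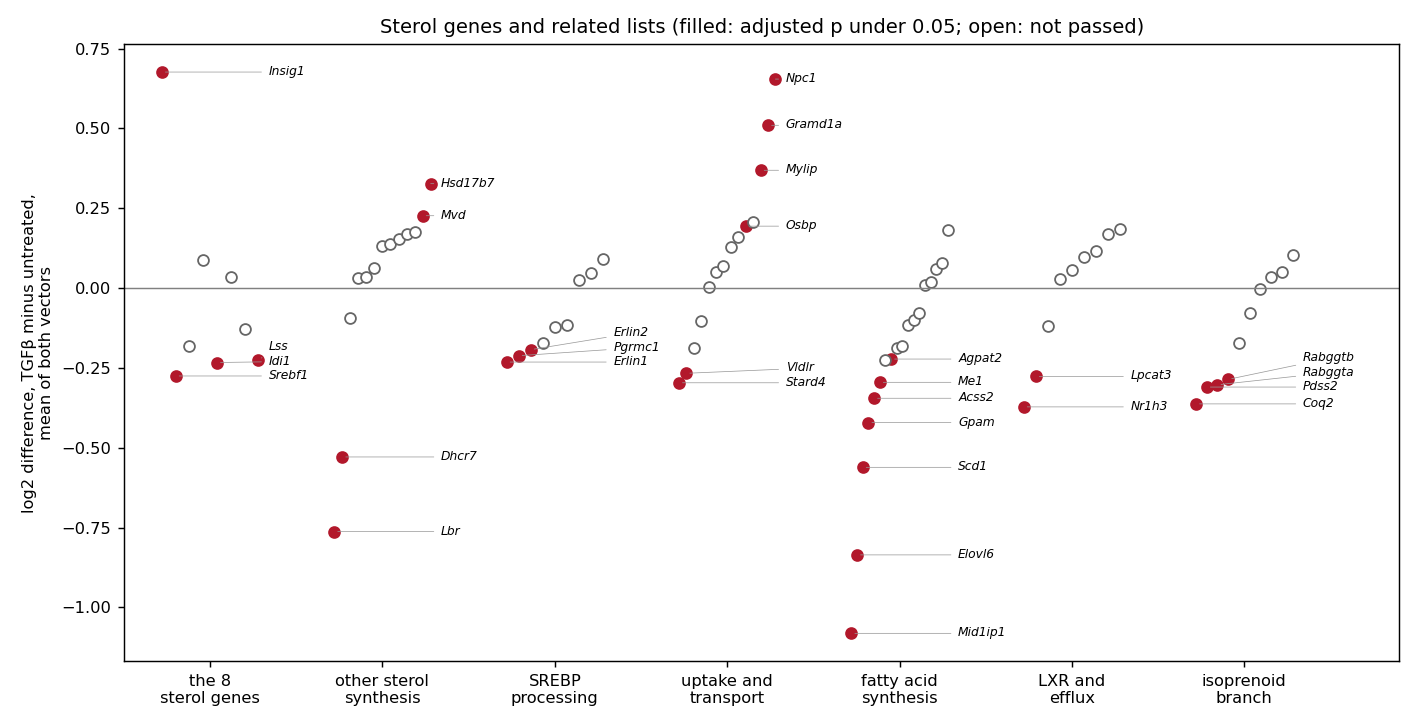
Log2 difference, TGFbeta minus untreated over both vectors, for the 8 genes and 6 related lists (x axis), with filled points for genes with a limma adjusted p under 0.05. The fatty acid list has 7 filled points, all below 0, down to Mid1ip1 at -1.08, while the rest of the sterol pathway has 2 above and 2 below 0.

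Of the LXR and sterol efflux genes, 9 of 10 were measured, and 0 rose, 2 fell and 7 did not pass (median 0.06). Nr1h3, which encodes the oxysterol receptor LXR alpha, fell by 0.37 ± 0.07 (SE; limma adjusted p = 0.00336; 0.387 without the replicate block), and Lpcat3, a phospholipid-remodelling enzyme, by 0.28 ± 0.07 (SE; adjusted p = 0.0134; 0.413 without the block). Abca1 (-0.12) and Abcg1 (0.17), the sterol exporters that LXR induces, did not pass. Of the isoprenoid branch, 10 of 12 were measured, and 0 rose, 4 fell and 6 did not pass (median -0.13). Those that fell were Rabggta (-0.30) and Rabggtb (-0.29), the subunits of the Rab prenyltransferase, and Pdss2 (-0.31) and Coq2 (-0.36), which act in ubiquinone synthesis, with limma adjusted p-values of 0.00524 to 0.00996. None of these 4 passed without the block (adjusted p = 0.158 to 0.332). In the vector comparisons 0 genes of any of these 6 lists passed.

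Markers of other cell types were read beside these changes. Of 8 fibroblast markers 3 rose over both vectors, Pdgfra by 0.66 ± 0.07, Col1a1 by 0.47 ± 0.07 and Pdgfrb by 0.29 ± 0.06 (SE; limma), and Pdgfra also passed without the replicate block (adjusted p = 0.0281). The mean log2 level of the 8 was 7.05 to 7.15 with TGFbeta in the major satellite line, against 6.77 to 6.95 untreated, and 7.00 to 7.15 with TGFbeta in the control line, against 6.72 to 6.99 untreated. Their part in the sterol gene changes was not tested. Of 5 measured adipocyte markers 0 rose or fell, and of 7 endothelial and immune markers 1 rose (Cdh5, by 0.30). Of the 8 epithelial markers 2 fell (Krt19 by 0.74 and Ocln by 0.34) and 2 rose (Epcam by 0.39 and Cldn3 by 0.31). No marker was listed at 0, and none could be, as the lowest value of any probeset was 2.98.

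Genes most like the members were sought by Pearson correlation over the 8 arrays, each centred within its replicate number, among 3360 genes with a mean log2 value of at least 6 and an SD of at least 0.2. The 8 points share the TGFbeta contrast, so the correlations are descriptions. Nearest to Insig1 were Arc (0.99), Cdc42ep3 (0.99), Arhgap42 (0.98), C9orf72 (0.98) and Lmbr1l (0.98), which also rose under TGFbeta, by 0.43 to 0.70. Of the other members, Idi1 (-0.74), Sqle (-0.70), Lss (-0.62), Srebf1 (-0.61) and Srebf2 (-0.59) ran opposite to Insig1, while Hmgcs1 (0.29) and Fdps (-0.04) followed it little either way. The genes nearest to the mean of the 5 enzymes were Krt6a (0.95), Mrpl22 (0.94), Flnc (0.91), Il5ra (0.89) and Dhrs7b (0.88). That mean varied little, with an SD of 0.09 against 0.40 for Insig1, below the 0.2 asked of the matched genes. Its correlation was 0.46 with Srebf1, 0.385 with Srebf2 and -0.53 with Insig1.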

How the data were processed

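RNA of 8 NMuMG cell samples was measured on Affymetrix arrays. The authors deposited 1 log2 value per probeset and array. RMA and limma are named in the submitters' processing notes, with versions and roles not given in the sources used here, and neither was the build behind the probe annotation. The table held 34760 probesets with 0 missing values, from 2.98 to 14.75, and 0 identical pairs of arrays. Comparisons used the 21640 probesets with a single symbol in the probe table, and not the 1321 with more than 1 or the 11799 it does not list. Symbols were updated by Entrez identifier with RefSeq (GRCm38.p6; 19855 matched). For genes with several probesets the one with the highest mean was used, which left 19937 genes.

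Group differences came from limma 3.58.1 (R 4.3.3) on the log2 values of all 8 arrays, with 1 mean per group, the replicate number as a block and 3 residual degrees of freedom. There were 7 comparisons, two-sided, with a threshold of 0.05 on the Benjamini-Hochberg adjusted p. Pairing comes from the code in the array titles. Deviations from the group means of same-numbered arrays correlated at 0.758 to 0.874 across genes over the 6 pairs of groups; genes are not independent replicates. The script was tested on simulated data. Alternatives were no block, centred arrays, a minimum mean of 6, averaged probesets, an intensity trend, each array left out, each replicate number alone and the 4 arrays of a comparison alone.

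All members and their probesets are named, and of each other list up to 4 genes with the smallest p in the TGFbeta comparison over both vectors, besides check genes and markers. The members and the 11 lists were chosen with earlier results of these data known. The number of arrays limits the precision, and near-identical copies of a gene may share probes.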

Additional observations from a re-analysis of the deposited data

Results flagged for a closer look

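Fdps was the 1 member whose response to TGFbeta ran in opposite directions in the lines in every pair of arrays. The major satellite pairs were 0.14 and 0.27, against -0.13 and -0.14 in the control pairs (log2). The difference between the responses was 0.35 ± 0.12 (SE; limma adjusted p = 0.999), and over the 13 alternatives with a test its adjusted p was 0.424 to 1.0. Opposite directions of this kind were seen in 6.45% of all genes.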

How the results depend on the processing

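All 8 genes kept the direction of their TGFbeta difference over both vectors under all 13 alternatives with a test. Dropping the block, the minimum mean and the intensity trend cannot change these differences, so their directions were fixed in advance. Averaging probesets changed only that of Idi1. The calls were not all kept. Insig1 passed in 12 of 13, Srebf1 in 7, Lss in 6, Idi1 in 5, Srebf2 in 2 and the other 3 genes in 0; the cause was not tested. Without the replicate block 0 of the 8 genes passed over both vectors, 0 in the major satellite line and 0 in the control line, and 962, 218 and 214 of all genes did, where 4841, 3044 and 2901 passed with it. The vector comparisons then called 1 gene untreated, 1 with TGFbeta and 2 over both treatments, where 6, 6 and 17 passed with the block. Fitted on its 4 arrays alone, the major satellite response to TGFbeta called 1997 genes and 0 of the 8, and the vector comparisons called 16 genes untreated and 56 with TGFbeta. Leaving out 1 array leaves its group with 1, which is assumed to vary like the other groups. For the control line, leaving out TGFbeta major satellite 1 or 2 called equally many genes. Genes called for TGFbeta were then 1228 to 3020 in the major satellite line and 1202 to 3161 in the control line, for the vector 2 to 9 untreated, 1 to 107 with TGFbeta and 8 to 49 over both treatments, and 0 to 17 for the difference between responses, the highest of each except the untreated count being without TGFbeta major satellite 1. Members called were 1 to 4 over both vectors, 0 to 1 in the major satellite line (Srebf1 in place of Insig1 without TGFbeta major satellite 1) and 1 in the control line. Their median difference was -0.19 to -0.11 over both vectors, -0.181 to -0.0909 in the major satellite line and -0.20 to -0.10 in the control line. Within replicate 1 alone this median was -0.10 in the major satellite line, -0.18 in the control line and 0.16 for the vector, and with all probesets averaged -0.0941 in the major satellite line. The vector median of 0.16 rests on replicate 1, as in replicate 2 the vector differences ran in both directions. With TGFbeta those of replicate 2 were -0.27 for Insig1 and -0.26 for Srebf1, against 0.26 for Fdps and 0.22 for Hmgcs1. Differences near 0 turned sign when 1 array was left out: Hmgcs1 in the control line (-0.071 to 0.065), the vector differences of Insig1 (-0.059 to 0.20), Srebf1 (-0.097 to 0.075) and Srebf2 (-0.045 to 0.062), and the differences between responses of Srebf1 (-0.28 to 0.065), Idi1 (-0.0089 to 0.24), Sqle (-0.028 to 0.096) and Lss (-0.17 to 0.071). The second Idi1 probeset, added after seeing the data, turned sign in the major satellite line (0.019). With 2 arrays per group and no detection calls, small differences of weak probesets are limited by the number of arrays.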

Other observations

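A further probeset names Srebf2 among 4 gene symbols, so its signal cannot be given to 1 gene and it was left out of the comparisons. It read 9.50 and 10.78 with TGFbeta in the major satellite line, against 9.91 and 11.02 untreated, and 9.68 and 10.89 with TGFbeta in the control line, against 9.92 and 10.96 untreated (replicates 1 and 2). The treated array was the lower in all 4 pairs, by 0.07 to 0.41, and the replicates differed by more than 1 log2 unit in every group.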
